A study of Mus musculus with 36 samples.

Results

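T cell identity genes were placed in replication timing (RT) maps of cells that are not T cells. The list held 10 genes: the CD3 subunit genes Cd3e, Cd3d and Cd3g, the coreceptor genes Cd4, Cd8a and Cd8b1, the costimulatory receptor gene Cd28, and the transcription factor genes Bcl11b, Gata3 and Tcf7. They were chosen by name, from 22350 protein-coding genes, and all 10 were found. Because the 3 CD3 genes lie side by side, as do Cd8a and Cd8b1, the 10 genes made up 7 loci, and neighbours in a locus are not independent observations.

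The RT states came from Repli-seq, in which dividing cells take up BrdU, are sorted into early and late S phase, and the labelled DNA of each fraction is sequenced. The series held 36 libraries in 7 groups. The CH12 map rests on 4 libraries of CH12, a mouse B cell lymphoma line, infected with lentiviruses carrying an shRNA against LacZ (shLacZ, the infection control), which per the labels grew with IL4, CD40 and TGF beta stimulation. The primary B map rests on 4 libraries of activated splenic B cells from WT (Rif1+/+) mice. The study's methods give a C57BL/6 background for Rif1+/+ mice named beside a line with tagged RIF1. They do not state the strain of the Repli-seq mice separately. The age of the mice is not given in the sources used here, and the label of these libraries repeats the CH12 culture text. In both groups the 4 libraries were 2 replicates of the early and of the late fraction. CH12 is a single transformed line. For chromatin immunoprecipitation the methods describe purifying splenic B cells with anti-CD43 beads, which remove T cells, and for Repli-seq the purification is not given in the sources used here. The files hold no expression, so the labelled cell type could not be checked against markers. The remaining map, named MEF WT, is tied by the labels to no sample, and the study lists it as mouse embryonic fibroblast data from an earlier public data set. Libraries of the other 5 groups were not used. A map assigns 20 kb bins to an early (E), middle (M) or late (L) state after smoothing and a hidden Markov model. The primary B map left part of the genome without a state, but all 22350 protein-coding gene starts had a state in each map. The authors merged replicates first, which leaves 1 map per cell type. No replicate error and no test between maps could be given, and the depth behind a state is unknown. The files hold states and no RT values, so a difference within a state could not be seen.

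In mammalian cells, early replication goes along with gene-rich, open chromatin, and genes that a lineage switches on often sit in domains that replicate earlier there. The CD3 proteins carry signals from the T cell receptor, CD4 and CD8 help it to read MHC molecules, and CD28 supplies the second signal for activation. BCL11B, GATA3 and TCF7 (the protein TCF1) guide the commitment of thymic progenitors to the T lineage.

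None of the 10 gene starts was in the late state in any of the 3 maps. In CH12 cells 8 were early and 2 were middle, in primary B cells 8 were early and 2 were middle, and in the MEF map 7 were early and 3 were middle. All 10 had the same state in both B cell maps. The 2 middle genes in B cells were Bcl11b and Gata3, both transcription factors, and every receptor and coreceptor gene was early. Between the B cell maps and the MEF map, Cd8a and Cd8b1 were later in MEFs and Bcl11b was earlier in MEFs.

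These counts were read against all protein-coding gene starts. Of those, 50.6% were early, 27.2% middle and 22.1% late in CH12 cells. In primary B cells 58.0% were early, 29.1% middle and 12.9% late, and in the MEF map 58.6%, 29.6% and 11.9%. Counting 1 value per locus, 5 of the 7 loci were early and 2 were middle in each of the 3 maps, so the early share of the list rests in part on the neighbouring CD3 genes and on the Cd8 pair. The same state in both B cell maps held for 78.5% of all starts, against 10 of 10 genes (7 of 7 loci). Among all starts 18.8% were earlier in primary B cells than in CH12 cells and 2.75% were later, and 0 of the 10 genes were in either class. With 7 loci and 1 map per cell type, the distance of these counts from the background was not tested.

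The DNA in front of 5 genes shows how unlike their starts are in base composition. Shown are the 200 bases immediately upstream of the annotated start, 5′ to 3′ on the strand of the gene, in the NCBIM37 (mm9) assembly that the maps use, with CpG dinucleotides in capitals. Bcl11b (chr12:109241813-109242012, minus strand) and Gata3 (chr2:9811662-9811861, minus strand) are the 2 genes in the middle state in B cells. Tcf7 (chr11:52096682-52096881, minus strand) is the third transcription factor gene and was early in all 3 maps. Cd3d (chr9:44789676-44789875, plus strand) was early in all 3 maps, and Cd8a (chr6:71323221-71323420, plus strand) was early in B cells and middle in MEFs.
Bcl11b: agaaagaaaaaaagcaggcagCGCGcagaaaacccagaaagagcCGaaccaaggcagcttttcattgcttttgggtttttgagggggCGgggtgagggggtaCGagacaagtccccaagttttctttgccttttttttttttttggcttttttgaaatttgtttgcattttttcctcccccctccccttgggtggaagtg
Gata3: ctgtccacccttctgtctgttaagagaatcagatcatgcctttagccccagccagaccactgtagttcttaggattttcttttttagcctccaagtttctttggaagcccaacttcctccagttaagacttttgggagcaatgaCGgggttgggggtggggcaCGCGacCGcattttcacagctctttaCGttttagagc
Tcf7: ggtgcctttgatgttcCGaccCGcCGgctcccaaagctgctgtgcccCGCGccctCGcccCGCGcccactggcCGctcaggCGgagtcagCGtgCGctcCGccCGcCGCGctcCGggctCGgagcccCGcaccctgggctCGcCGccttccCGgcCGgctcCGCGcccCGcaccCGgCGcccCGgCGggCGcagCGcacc
Cd3d: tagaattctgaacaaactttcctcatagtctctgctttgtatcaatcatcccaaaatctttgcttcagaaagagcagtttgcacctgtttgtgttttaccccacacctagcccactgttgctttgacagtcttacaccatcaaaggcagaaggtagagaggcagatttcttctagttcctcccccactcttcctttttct
Cd8a: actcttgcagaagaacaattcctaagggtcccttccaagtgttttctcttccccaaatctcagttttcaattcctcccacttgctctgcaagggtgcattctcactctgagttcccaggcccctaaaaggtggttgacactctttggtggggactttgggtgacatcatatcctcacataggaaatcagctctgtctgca

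The stretch before Tcf7 held 32 CpGs at 81% GC. Those before Bcl11b and Gata3 held 5 CpGs each, at 46.5% and 48.5% GC. The stretches before Cd3d and Cd8a held 0 CpGs, at 42.5% and 47.5% GC. Early RT of a start was thus seen in these maps with 0 CpGs (Cd3d) and with 32 (Tcf7).

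Cd3e, Cd3d and Cd3g encode the epsilon, delta and gamma chains of the CD3 complex. Cd3e lies at chromosome 9, 44806826 to 44817673, on the minus strand, Cd3d at 44789876 to 44795135 on the plus strand, and Cd3g at 44777655 to 44788514 on the minus strand. The starts of Cd3d and Cd3g are 1362 bases apart, in the same 20 kb bin, and the start of Cd3e is 29.2 kb from that of Cd3g, in the bin beside it. All 3 starts lay in 1 early domain in each map. That domain ran from 43620001 to 46180000 (2560 kb) in CH12 cells and from 43640001 to 46220000 (2580 kb) in primary B cells. Its edges differed by 20 kb on the left and 40 kb on the right between those maps. In the MEF map the early domain ran from 42700001 to 45000000 (2300 kb). The Cd3e start was 1198 kb from the nearer edge in CH12 cells, 1178 kb in primary B cells and 182 kb in MEFs. All 3 genes were therefore deep inside an early domain in both B cell maps and nearer to its right end in the MEF map. From 1 Mb before to 1 Mb after each of these starts, 101 of 101 bins were early in both B cell maps, and in MEFs 80 were early and 21 middle. Among early starts of all genes, the median covering domain was 2200 kb in CH12 cells and 2100 kb in primary B cells, and the median distance to the nearer edge was 439.6 kb and 437 kb.

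Thy1, a surface marker of mouse T cells, shared the CD3 domain in all 3 maps. Apart from the 3 CD3 genes themselves, 44 protein-coding gene starts lay in the same domain as Cd3e in every map, the nearest being Mpzl2, Ube4a and Mpzl3 at 33, 44 and 46 kb. The density of coding gene starts in that domain was 26.6 per Mb in CH12 cells, 26.4 in primary B cells and 23.5 in MEFs.

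Cd4, the coreceptor gene of helper T cells, lies at chromosome 6, 124814710 to 124838239, on the minus strand. It was early in all 3 maps, and no edge of its domain moved by more than 80 kb between CH12 cells and either other map. The domain measured 1260 kb in CH12 cells (124340001 to 125600000), 1220 kb in primary B cells (124420001 to 125640000) and 1300 kb in MEFs (124360001 to 125660000). Between CH12 and primary B cells its edges differed by 80 and 40 kb, and between CH12 cells and MEFs by 20 and 60 kb. The start was 498 kb from the nearer edge in CH12 cells, 418 kb in primary B cells and 478 kb in MEFs. What lay outside the domain differed more. Of the 101 bins round the start, 14 were late in CH12 cells, 0 in primary B cells and 7 in MEFs, and the nearest late domain was 778, 1098 and 878 kb away. The Cd4 domain was also the most gene-dense of the 7 loci, with 38.9 coding gene starts per Mb in CH12 cells. Its other genes in all 3 maps numbered 46, among them Lag3 at 23 kb, a CD4-related receptor, and Cd27, a costimulatory receptor of the TNF receptor family.

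Cd8a and Cd8b1 encode the chains of the CD8 coreceptor of cytotoxic T cells, and their starts are 50.6 kb apart. Cd8a lies at chromosome 6, 71323421 to 71329165, and Cd8b1 at 71272830 to 71287471, both on the plus strand. The covering domain was early and 2460 kb long in CH12 cells (70720001 to 73180000) and early and 2460 kb long in primary B cells (70660001 to 73120000), with both edges moved by 60 kb. In MEFs both starts fell in a middle domain of 1000 kb (70500001 to 71500000), which had a late domain on its left and an early domain on its right. The distance of the Cd8a start from the nearer edge was 603 kb in CH12 cells, 663 kb in primary B cells and 177 kb in MEFs, and that of Cd8b1 was 553, 613 and 227 kb. The Cd8 locus was thus away from domain edges in both B cell maps and on a step from late to early in the MEF map. Round Cd8a, 81 of 101 bins were early in CH12 cells, 84 in primary B cells and 42 in MEFs, and 0, 0 and 9 bins were late. The pattern of early in both B cell maps and middle in MEFs held for 4.47% of all coding gene starts and for 2 of the 10 genes, which are 1 locus.

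Cd28, whose product is the main costimulatory receptor of T cells, lies at chromosome 1, 60773644 to 60830203, on the plus strand. It was early in all 3 maps, but its early domain differed most in extent between the B cell maps. The domain measured 3720 kb in CH12 cells (58020001 to 61740000), 1500 kb in primary B cells (59600001 to 61100000) and 3280 kb in MEFs (58000001 to 61280000). The left edge was moved by 1580 kb and the right edge by 640 kb between CH12 and primary B cells, while CH12 cells and MEFs differed by 20 kb on the left and 460 kb on the right. The start was 966 kb from the nearer edge in CH12 cells, 326 kb in primary B cells and 506 kb in MEFs. No bin within 1 Mb was late in any map. Of the 101 bins, 99 were early and 2 middle in CH12 cells, against 67 and 34 in primary B cells and 76 and 25 in MEFs. Ctla4 and Icos, related receptors whose starts are 170 and 261 kb from that of Cd28, stayed in its early domain in all 3 maps.

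**Figure D1:**
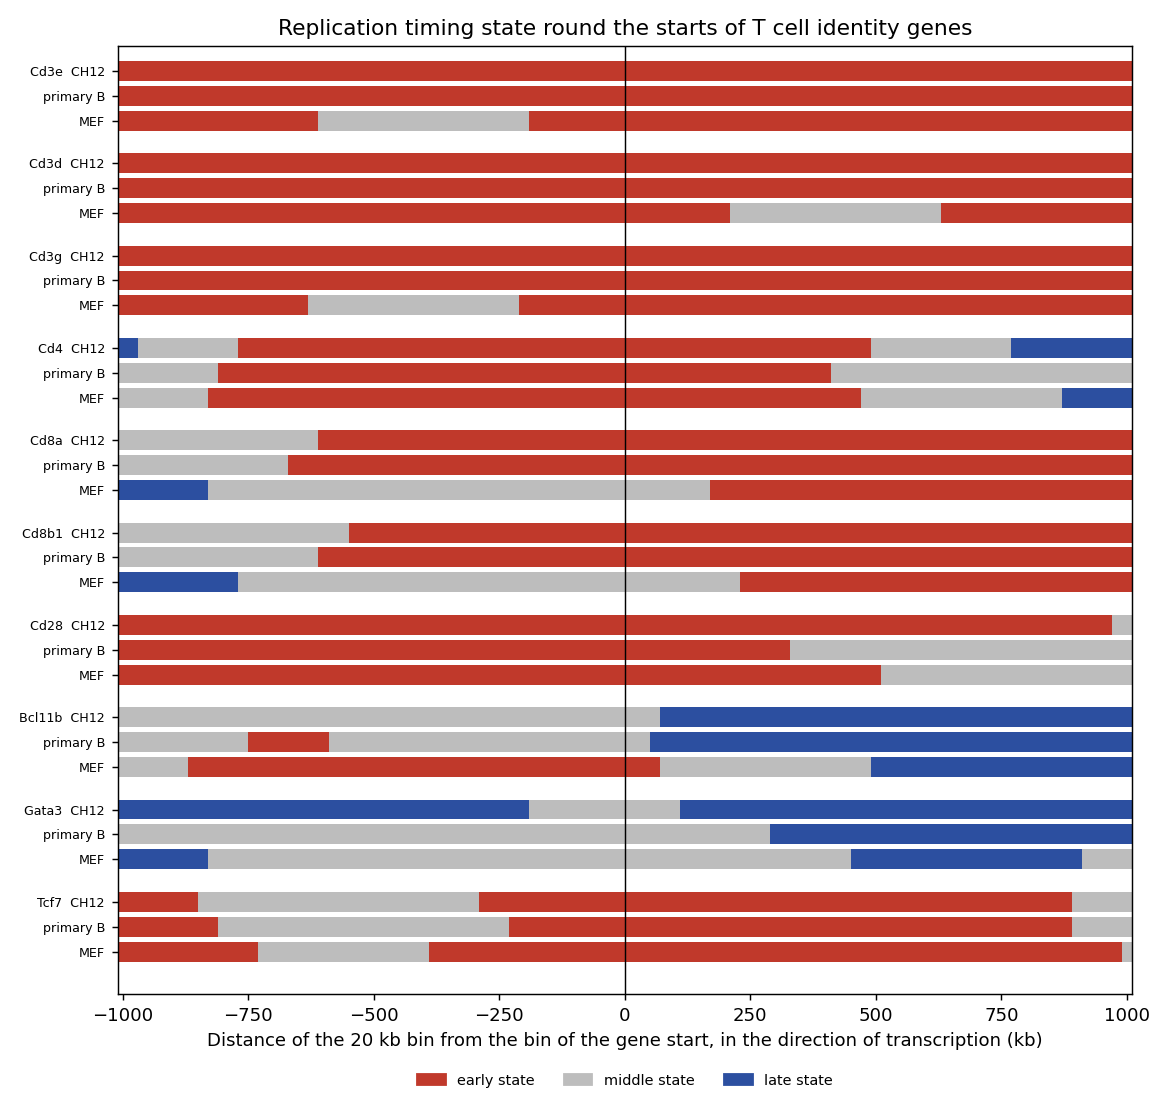
State of each 20 kb bin from 1000 kb before to 1000 kb after the bin of each gene start, in the direction of transcription, in the CH12, primary B and MEF maps (red early, grey middle, blue late; the vertical line marks the start). The CD3 genes were early in all 101 bins in both B cell maps, and Gata3 had 86 late bins in CH12 cells and 36 in primary B cells.

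Tcf7, which encodes a factor that acts downstream of Notch and Wnt signals in early T cell development, lies at chromosome 11, 52065873 to 52096681, on the minus strand. It was the only transcription factor gene of the list that was early in all 3 maps. Its domain measured 1180 kb in CH12 cells (51200001 to 52380000), 1120 kb in primary B cells (51200001 to 52320000) and 1380 kb in MEFs (51100001 to 52480000). The left edge was at the same position in both B cell maps and the right edge was moved by 60 kb. The start was 283, 223 and 383 kb from the nearer edge, which lay upstream of the gene in all 3 maps. Of the 101 bins, 67 were early in CH12 cells, 66 in primary B cells and 83 in MEFs, and none was late in any map. Other starts in the domain of all 3 maps numbered 19, with Skp1a nearest at 51 kb.

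Bcl11b encodes a zinc finger factor required for T lineage commitment, and lies at chromosome 12, 109148613 to 109241812, on the minus strand. Its start was middle in CH12 and primary B cells and early in MEFs, a pattern held by 5.71% of all coding gene starts and by 1 of the 10 genes. The middle domain measured 1320 kb in CH12 cells (109180001 to 110500000), with late domains on both sides. In primary B cells it measured 640 kb (109200001 to 109840000), with a late domain on the left and an early domain on the right. In MEFs the start lay in an early domain of 940 kb (109180001 to 110120000) between middle domains. The nearest early domain was 2142 kb from the start in CH12 cells and 598 kb in primary B cells, although the state of the gene was the same. In primary B cells that early domain was short. It spanned -758 to -598 kb from the start, in the direction of transcription, and the DNA beyond it was middle out to -2000 kb.

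Bcl11b was also the one gene of the list cut by a domain edge. The edge lay downstream of its start in all 3 maps, 62 kb away in CH12 cells, 42 kb in primary B cells and 62 kb in MEFs, inside a gene of 93.2 kb. In CH12 cells 61.8 kb of the gene was middle and the last 31.4 kb late. In primary B cells 41.8 kb was middle and 51.4 kb late. In MEFs 61.8 kb was early and 31.4 kb middle. The edge was thus at the same bin boundary in CH12 cells and MEFs and 20 kb from it in primary B cells, while the states on its sides were 1 step earlier in MEFs. A domain edge inside the gene body in each of the 3 maps was found for 1 of the 10 genes, for 0.550% of all protein-coding genes, and for 4.51% of the 2593 that are at least as long as Bcl11b. States were called on 20 kb windows after smoothing over a wider span, so the place of an edge within the gene is known only to that resolution.

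Gata3 encodes a zinc finger factor of T cell and helper T cell differentiation, and lies at chromosome 2, 9778705 to 9811661, on the minus strand. It was the one gene of the list in the middle state in all 3 maps, which held for 10.8% of all coding gene starts. Its state was the same in both B cell maps, but its surroundings were not. In CH12 cells the start lay in a middle domain of only 300 kb (9700001 to 10000000) between late domains. In primary B cells the middle domain measured 1480 kb (9520001 to 11000000), with a late domain on the left and an early domain on the right. In MEFs it measured 1280 kb (9360001 to 10640000), between late domains. Round the start, 86 of 101 bins were late and 15 middle in CH12 cells, 36 were late and 65 middle in primary B cells, and 32 were late and 69 middle in MEFs. No bin was early in any map. The nearest late domain was 112 kb from the start in CH12 cells, 292 kb in primary B cells and 452 kb in MEFs. Gata3 thus sat in a short middle island within late DNA in CH12 cells. In primary B cells it sat in a middle stretch of 1480 kb, 292 kb from the edge that faced late DNA.

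**Figure D2:**
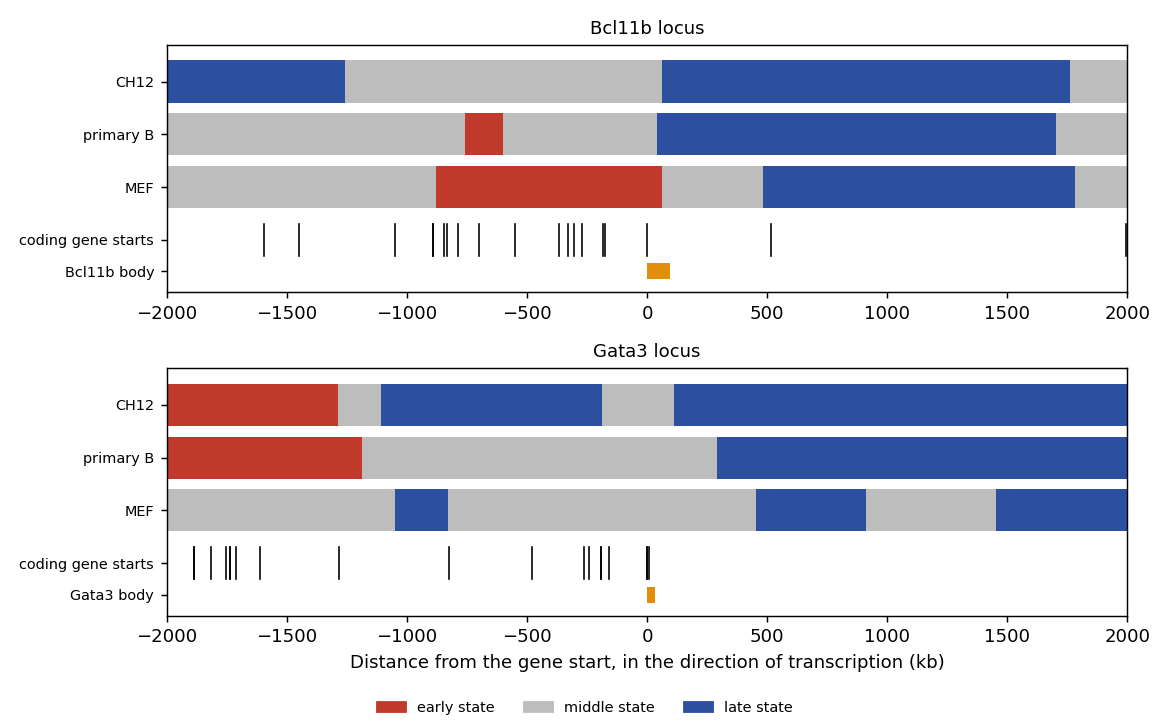
Domains in the 3 maps within 2000 kb of the starts of Bcl11b (top) and Gata3 (bottom), in the direction of transcription, with all protein-coding gene starts as ticks and the gene body as an orange bar. At both loci 16 coding gene starts lay upstream and 2 downstream, and the DNA just beyond the downstream edge was late in both B cell maps.

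Bcl11b and Gata3 shared more than their state in B cells. At both, the nearer domain edge was downstream of the start in each of the 3 maps. It lay inside the gene body at Bcl11b and past the gene at Gata3. The domain beyond that edge was late in both B cell maps. Coding genes were sparse on that side: within 2000 kb of the start, each had 16 coding gene starts upstream and 2 downstream. The medians over genes middle in both B cell maps were 17 and 18, and 6.22% of those genes had 2 or fewer on a side. Among the early genes of the list, Cd28 had 23 upstream and 4 downstream, and the others had at least 11 on each side. In a window of 500 kb on each side, Bcl11b had 6 other coding gene starts and Gata3 had 8, against a median of 10 over genes middle in both B cell maps and 22 over genes early in both. Among the early genes, Cd28 had 5, Tcf7 11, Cd8b1 14, Cd8a 15, Cd3e 26, Cd3d and Cd3g 27 each, and Cd4 46. Within 500 kb on each side, Cd28 thus had fewer coding genes around it than Bcl11b or Gata3, and it was early in all 3 maps. Within 2000 kb it had more than either gene, both upstream and downstream.

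The base composition of the 20 kb bin of the start did not order the genes by state. The bins of Bcl11b and Gata3 held 51.3% and 50.1% GC, above the median of 43.3% over genes middle in both B cell maps and above that of 47.5% over genes early in both. The bin of Tcf7 held 53.7% GC, and those of the 7 receptor and coreceptor genes held between 42.6% (Cd28) and 47.1% (Cd8b1). In the 300 bases round the start (250 before it and 50 after), the observed over expected CpG ratio was 0.619 at Bcl11b, 0.553 at Gata3 and 1.04 at Tcf7. The 7 receptor and coreceptor genes lay between 0.0764 (Cd3d) and 0.501 (Cd4), below the median of 0.659 over genes early in both B cell maps. Genes late in both B cell maps had a median ratio of 0.203, and Cd3d, Cd3g at 0.183 and Cd8a at 0.198 were below that value while early in both.

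Covering domains and edge distances are compared in the plot of domain lengths. The early domains of the list that were longer than the CH12 median of 2200 kb in CH12 cells were those of the CD3 genes, the Cd8 pair and Cd28, and those of Cd4 and Tcf7 were shorter. In primary B cells, with a median of 2100 kb, the Cd28 domain was also shorter. Over middle starts of all genes, the median domain was 660 kb in CH12 cells and 740 kb in primary B cells. The Bcl11b domain was longer than that median in CH12 cells and shorter in primary B cells, and the Gata3 domain was the reverse. Of the 10 genes, 9 were over 100 kb from both edges in each map, the exception being Bcl11b in all 3. Over all coding gene starts this held for 79.7% in CH12 cells, 81.2% in primary B cells and 84.8% in MEFs.

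**Figure D3:**
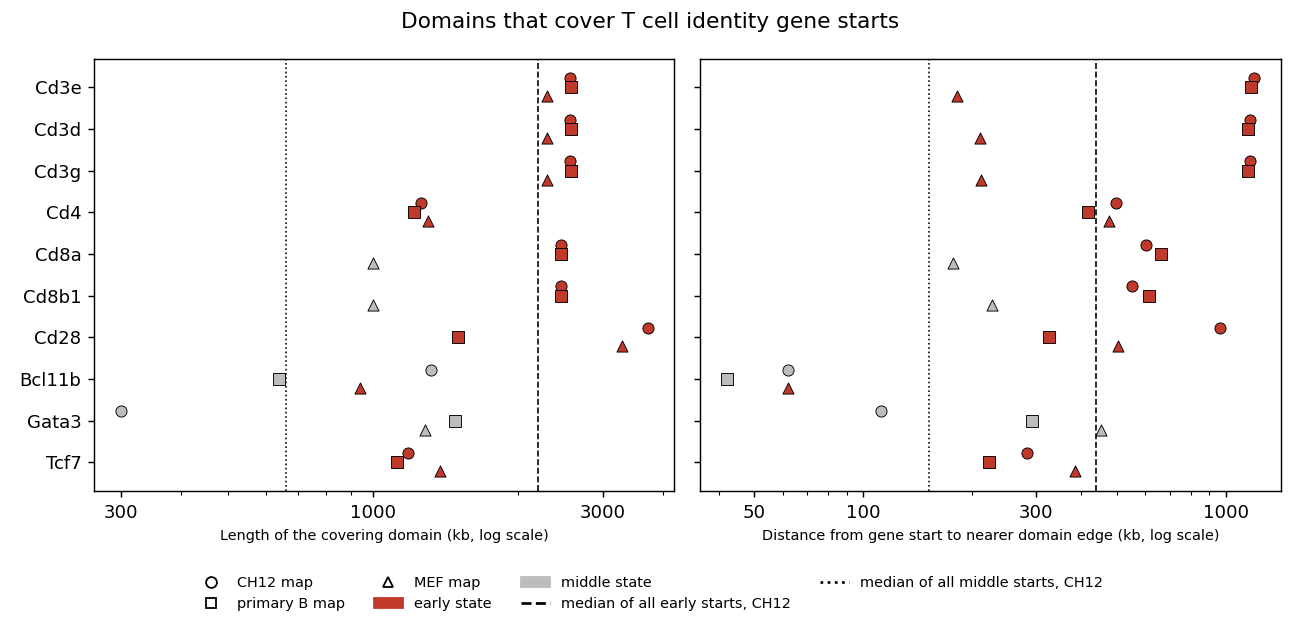
Length of the covering domain (left, kb, log scale) and distance from the gene start to the nearer domain edge (right, kb, log scale) for each gene in the CH12 (circles), primary B (squares) and MEF (triangles) maps, coloured by state. The dashed and dotted lines are the medians over all early and all middle coding gene starts in CH12 cells. Bcl11b sat closest to an edge in each map, at 42 to 62 kb, and the CH12 domain of Gata3 was the shortest, at 300 kb.

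Between the B cell maps, early domains of the list kept their extent closely, except that of Cd28. Of the 8 genes early in both, 7 genes (4 of 5 loci) had both edges of their domain within 100 kb in the other map, against 35.5% of the 10807 coding gene starts early in both. The share of bins within 1 Mb in the same state in CH12 and primary B cells was 100% at the CD3 genes, 97.0% at Cd8a and Cd8b1, 95.0% at Tcf7, 80.2% at Cd4 and 68.3% at Cd28. The median over starts early in both B cell maps was 90.1%. At Bcl11b it was 91.1% and at Gata3 50.5%, where starts middle in both had a median of 75.2%. The edges of the Gata3 domain were moved by 180 and 1000 kb between the B cell maps, and those of Bcl11b by 20 and 660 kb. At each gene the smaller shift was at the edge downstream of the start.

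The same state in all 3 maps was found for 7 of the 10 genes (5 of 7 loci), against 62.8% of all coding gene starts. Of these, 6 genes (4 loci) were early in all 3, which held for 43.9% of all coding gene starts: Cd3e, Cd3d, Cd3g, Cd4, Cd28 and Tcf7. All were therefore early in fibroblasts too, and the share of the list early in the MEF map, 7 of 10 genes, was 70.0% beside 58.6% of all coding gene starts.

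Other genes known from T cells, were listed for comparison. Of 25 (among them Cd247, Lck, Zap70, Lat, Notch1 and Runx3, all early in all 3 maps), 20 were early, 4 middle and 1 late in CH12 cells, 22 early and 3 middle in primary B cells, and 18 early, 5 middle and 2 late in MEFs. Cd2, an adhesion receptor of T cells, was late in CH12 cells and early in primary B cells. Cd40lg, the ligand through which helper T cells activate B cells, and Lef1, a relative of TCF7, went from middle in CH12 cells to early in primary B cells. Il7r and Tox were middle in both. So 3 of the 25 were earlier in primary B cells, against 0 of the 10 identity genes. Thy1, Cd27, Ctla4 and Icos of this list were early in all 3 maps. They lay in the same domains as Cd3e, Cd4 and Cd28 in each map, so they are not independent of the identity genes.

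Genes of the B lineage itself gave a further comparison. Of 14, among them Cd79a, Cd79b and Pax5, 10 were early and 4 middle in CH12 cells, all 14 were early in primary B cells, and 8 were early and 6 middle in MEFs. The 4 that were middle in CH12 cells and early in primary B cells were Btk, a kinase of B cell receptor signalling, Cr2, a complement receptor, Fcer2a, the low-affinity IgE receptor, and Ebf1, a B lineage factor. Bcl11b and Gata3 thus had in CH12 cells the same middle state as Ebf1, and in primary B cells a later one. In addition, 15 regulators of lineages outside blood gave 8 early, 4 middle and 3 late in CH12 cells, 9, 5 and 1 in primary B cells, and 10, 4 and 1 in MEFs. Sox2, a stem cell and neural factor, was late in all 3 maps. Tbx5, a heart and limb factor, and Foxa2, an endoderm factor, were late in CH12 cells and middle in primary B cells. Gata4 and Hnf4a were middle in CH12 cells and early in primary B cells, and Neurog1 was early in CH12 cells and middle in primary B cells. The lists are small and were not compared by a test.

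**Figure D4:**
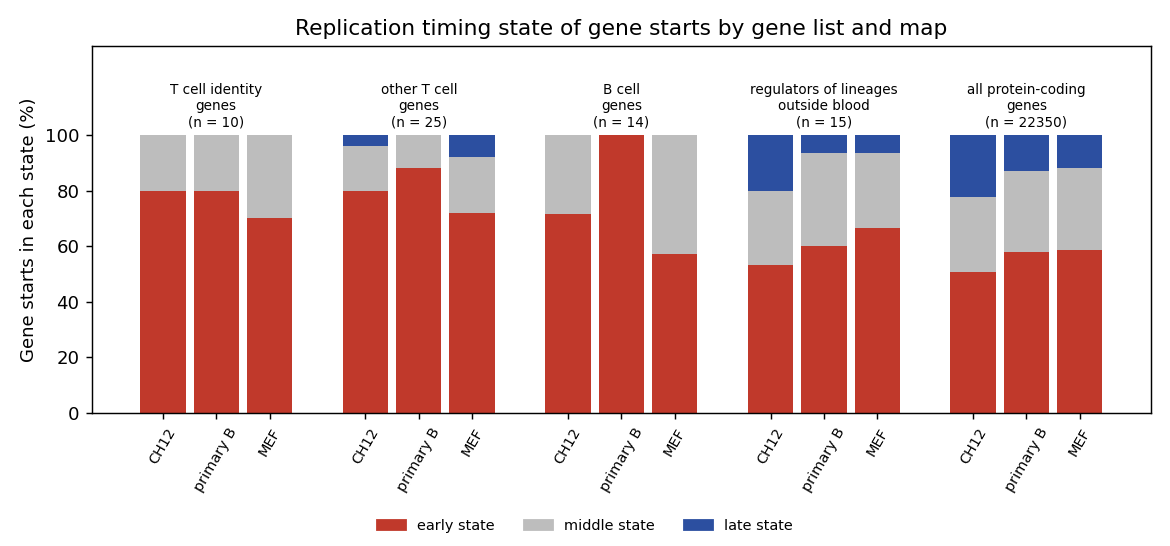
Share of gene starts (%) in the early (red), middle (grey) and late (blue) state in each map, for the 10 T cell identity genes, 25 other T cell genes, 14 B cell genes, 15 regulators of lineages outside blood and all 22350 protein-coding genes. The T cell identity genes had 80.0% early starts in both B cell maps, and the other T cell genes 80.0% in CH12 cells and 88.0% in primary B cells. B cell genes went from 71.4% early in CH12 cells to 100% in primary B cells. Neither the T cell identity genes nor the B cell genes had a late start in any map.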

How the data were processed

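Per the labels and the study's methods, the authors trimmed reads (Trim Galore 0.6.5), aligned them to mm9 with BWA 0.7.17, merged replicates, took log2 early over late ratios in 20 kb windows, smoothed them by loess and called 3 states with a hidden Markov model. The deposited files hold domain starts, ends and state numbers, and no RT values, so replicate spread is lost, edges are blurred by the smoothing, and the RT values that bound a state can differ between maps. The Repli-seq methods describe separate sorts of each fraction and call them technical replicates. Another section of the methods derives sequencing replicates from separately thawed vials of CH12 cells. Which of these the merged replicates were is not given in the sources used here.

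The files do not name the states. The state between the 2 that never touch was called middle, and the more gene-dense of the others early: numbers 2, 1 and 0 were early, middle and late in CH12 and primary B cells, and 0, 2 and 1 in MEFs. All 20 chromosomes ended at the NCBIM37 lengths in each map. Genes came from GENCODE M1, 22350 of them protein-coding, and were placed by their start on their strand. Ptcra, 1 of the genes listed for comparison, has another gene type there. Windows ran 1 Mb to each side. Distances to edges are rounded to whole kb.

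The genes and the comparison lists were chosen with earlier results of these data known. All 10 genes are named, with up to 3 nearest genes sharing their domain in all maps and, of the comparison lists, the genes late in a B cell map or differing between the B cell maps. Some items under this rule are not reported here. Other genes of those lists are examples chosen after their values were seen. The placing functions were tested on simulated data. Analyses used Python 3.11.15, numpy 2.4.6 and matplotlib 3.10.9.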

Additional observations from a re-analysis of the deposited data

How the results depend on the processing

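Of 78 values for the 10 genes recomputed under alternatives, 64 stayed within 1.5 times the reported value and 14 moved beyond it. With 1 value per locus, 5 of 7 loci were early in CH12 cells and 5 of 7 in primary B cells, against 8 of 10 genes in each. Part of that move comes from the smaller total, because counts and not shares were compared. Also per locus, the median covering domain in CH12 cells was 1320 kb against 2460 kb over genes. The median edge distance was 326 kb against 516 kb in primary B cells and 383 kb against 219 kb in MEFs. Placing genes by their end gave 1 middle and 1 late gene in CH12 cells and 1 middle and 1 late in primary B cells, the late one being Bcl11b. Placing them by the middle of the gene body gave 1 middle and 1 late gene in primary B cells, and 1 gene later in primary B cells than in CH12 cells, again Bcl11b. Leaving out genes within 100 kb of an edge removed Bcl11b and gave 1 middle gene in CH12 cells and 1 in primary B cells. Counting all annotated genes or autosomes alone moved 16 of 20 background shares beyond their 95% Wilson intervals. No paired analysis was possible because each map holds merged replicates. The depth of the libraries is not in the files used, so precision could not be given.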
